A study of Mus musculus with 23 samples.

Results

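Neurexins, neuroligins and LRRTMs are adhesion proteins that meet across the synaptic cleft. The genes described here are Nrxn2, Nrxn3, Nlgn1, Nlgn2, Nlgn3, Lrrtm1, Lrrtm2, Lrrtm3 and Lrrtm4. They were chosen by symbol, as members of these families, and make up 9 of the 45706 genes in the count table. All 9 were counted in every library, with 470 to 37923 reads per gene and library, and all 9 passed the filter on low counts. The libraries hold polyadenylated RNA of the mouse hippocampus. The series compares wild-type mice (SLM2 WT) with conditional knockouts of Slm2 (SLM2 cKO) in CA1 and CA3 excitatory neurons and in somatostatin (SST) interneurons. Sample names call the populations CamK, Grik and SST. CamK and Grik were described as pyramidal cells. There were 4 libraries each of CamK WT, Grik WT, Grik cKO, SST WT and SST cKO, and 3 of CamK cKO. The sources used here do not give the age and strain of the mice, the driver lines, the deleted exons or the way the cells were isolated. Nothing says whether a library is 1 animal or a pool, so p-values measure the spread between libraries.

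Neurexins sit mainly on the presynaptic membrane. Neuroligins and LRRTMs are their postsynaptic partners, which recruit receptors and scaffolds: Nlgn2 is known from inhibitory synapses, Nlgn1 and the LRRTMs from excitatory ones, and Nlgn3 from both. Neurexin transcripts are spliced at several segments, and Slm2 is an RNA-binding protein known to promote skipping of the exon at alternatively spliced segment 4. The insert coded by that exon changes which partners a neurexin binds: Lrrtm1 and Lrrtm2 proteins prefer neurexins without it, and cerebellins neurexins with it.

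The exon of segment 4 is shown for Nrxn3 because it is a known target of the deleted protein, and because a count per gene adds transcripts with and without it. In GENCODE M21 (GRCm38) it lies at chr12:90199147-90199236 on the plus strand, and 4 of 5 protein-coding transcripts that span it contain it. The exon is coding and 90 bases long, and is printed whole, 5′ to 3′.
Nrxn3: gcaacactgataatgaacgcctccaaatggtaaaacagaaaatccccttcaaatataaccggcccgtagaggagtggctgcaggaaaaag
The values below are reads per whole gene, so none of them tells how often this exon was used.

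The 9 genes differ widely in size. Nrxn3 (chr12:88722876-90334935, plus strand) spans 1612060 bases, with 12605 bases of exon. Nlgn1 (chr3:25426215-26332460, minus) spans 906246 bases and Lrrtm4 (chr6:80018877-80810143, plus) 791267. Nrxn2 is at chr19:6418731-6544169 (plus), Nlgn2 at chr11:69823122-69837784 (minus) and Nlgn3 at chrX:101299168-101325963 (plus). Lrrtm1 (chr6:77242689-77257791, plus) lies inside Ctnna2, Lrrtm2 (chr18:35209003-35215024, minus) inside Ctnna1 and Lrrtm3 (chr10:63928472-64090277, minus) inside Ctnna3. In each case the LRRTM gene is on the strand opposite to its host, an alpha-catenin gene. Of the exon bases of Nlgn3, 41.2% are also annotated to Gm21986 on the same strand, which had 3 to 26 reads per library. Of those of Lrrtm4, 25.1% lie opposite Gm4409, which had 0 to 4 reads. A830092H15Rik, opposite 9.16% of the exon bases of Nlgn1, had 143 to 288 reads. Whether counting used the strand was not stated, so reads of the overlaps on opposite strands cannot be assigned with certainty. For Nlgn3 and Gm21986 the strand cannot separate the reads, and whether reads of their shared bases were counted for Nlgn3 was not tested.

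The 23 libraries held 87612006 to 112993538 gene reads each. Summed markers of excitatory neurons (Slc17a7, Camk2a, Neurod6) were at 5207 to 7603 counts per 1000000 reads (CPM) in CamK and Grik libraries and at 717 to 1017 CPM in SST libraries, and summed inhibitory markers (Gad1, Gad2, Slc32a1) at 41.2 to 135 and 3735 to 5790 CPM. CA1 markers were at 587 to 1125 CPM in CamK libraries and 37.5 to 62.2 CPM in Grik libraries, and CA3 markers at 79.7 to 166 and 587 to 642 CPM. Dentate granule cell markers (Prox1, Dsp) summed to 67.1 to 204 CPM in CamK libraries, to 95.5 to 120 CPM in those of Grik and to 23.7 to 35.2 CPM in those of SST. Sst was lowest in SST WT replicate 2, at 159 CPM, against a median of 1055 and a highest value of 1720 CPM in SST WT, while Gad1 was at 2546 to 3087 CPM in that group. In SST cKO replicate 3 and SST WT replicate 5, the log2 CPM of Xist minus the mean log2 CPM of 4 Y-linked genes was 0.93 and 1.14. In the other libraries it was -7.27 to -5.79 or 6.91 to 10.87. Khdrbs3, the gene of Slm2, was lower in cKO than in WT in CamK (278 ± 25.1 CPM, SD, n = 3, against 373 ± 27.0, n = 4) and SST (93.8 ± 10.5 against 130 ± 8.31, n = 4 each), with an edgeR adjusted p of 0.114 and 0.0309. In Grik it was higher, at 414 ± 18.0 against 336 ± 8.61 CPM (SD, n = 4 each, edgeR adjusted p = 0.499). The groups did not overlap in any of the 3 populations. The call in SST was lost with limma-voom (adjusted p = 0.0614), the sex-gene covariate (0.0568) and a fit of SST alone (0.954), and without any 1 of SST WT replicates 1 and 5 and cKO replicates 3, 4 and 5 (0.0722 to 0.155). DESeq2 and limma-voom called the difference in CamK (adjusted p = 0.0030 and 0.0207), and limma-voom that in Grik (0.0158). The cKO minus WT differences of Khdrbs3 themselves differed between populations, by -0.73 (log2, edgeR adjusted p = 0.0154) for CamK minus Grik and 0.78 (adjusted p = 0.00135) for Grik minus SST. The call for CamK minus Grik was lost with the replicate block (0.118), with the sex-gene covariate (0.102), and without CamK cKO replicate 6 (0.114) or Grik cKO replicate 2 (0.0652). The direction in Grik was opposite to that in CamK and SST. A count per whole gene does not tell whether exons were deleted, and this was not tested. The groups are therefore called libraries labelled cKO.

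Per kilobase of annotated exon, Nlgn2 and Lrrtm1 were the most abundant of the 9 genes in CamK and Grik WT libraries. In CamK WT, Lrrtm1 was at 40.9 ± 4.20 and Nlgn2 at 39.3 ± 3.81 CPM per kb (SD, n = 4). Nrxn2 followed at 13.7 ± 1.14 and Nrxn3 at 13.6 ± 1.58. The other 5 genes were at 3.69 to 7.47 CPM per kb on average, Lrrtm4 lowest. In SST WT the order changed: Nlgn2 was at 42.4 ± 4.87, Nrxn3 at 26.9 ± 3.13, Lrrtm1 at 21.2 ± 1.72 and Nrxn2 at 19.3 ± 2.08 CPM per kb (SD, n = 4), and Nlgn1 was lowest at 2.69 ± 0.379. In Grik WT the lowest was Lrrtm3, at 1.51 ± 0.180 CPM per kb. The place of the neurexins in this order depended on the length. With the longest annotated transcript as length, an alternative chosen after seeing the data, Nrxn2 was 2.07 and Nrxn3 1.59 times higher in every group, and their sum by a factor in between. In SST WT, Nlgn2 was then at 44.0 ± 5.06, Nrxn3 at 42.8 ± 4.98, Nrxn2 at 40.0 ± 4.32 and Lrrtm1 at 21.8 ± 1.76 CPM per kb (SD, n = 4). In CamK WT, Nlgn3 was then lowest, at 4.49 ± 0.335 CPM per kb. With exon bases shared with other genes left out of the length instead, Nlgn3 was not lowest in CamK WT. It held 13.7% of the summed CPM per kb of the neuroligins there, against 10.1% for Nlgn1.

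**Figure D1:**
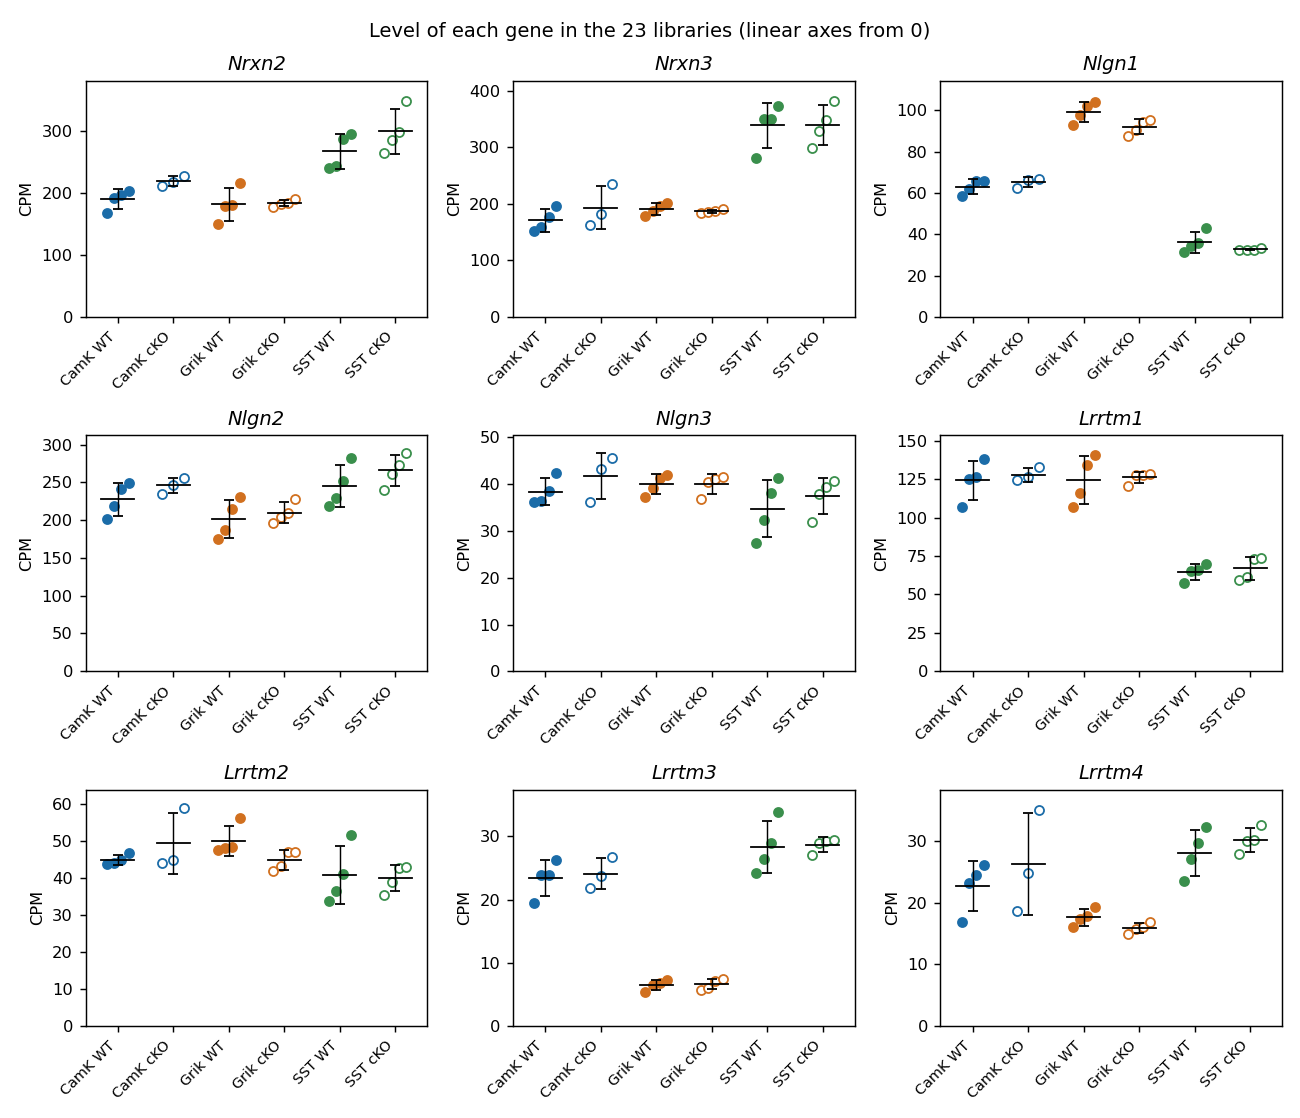
Level of each gene in CPM (linear axes from 0) in every library, by group. Filled points are WT and open points are libraries labelled cKO, and bars give the mean and the SD. Lrrtm3 is at 5.38 to 7.40 CPM in all 8 Grik libraries and at 19.4 to 33.8 CPM in the other 15, and Nlgn1 is highest in Grik and lowest in SST.

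The first question was how the genes differ between WT populations. Between CamK and Grik, 3 of 9 members passed an edgeR adjusted p of 0.05 (quasi-likelihood test, Benjamini-Hochberg over 18823 genes), where 42% of all genes did. Between CamK and SST it was 5 of 9, beside 60.1% of all genes, and between Grik and SST 8 of 9, beside 57.3%. Each population enters 2 of these comparisons, so the counts are not independent. In bulk RNA, fewer cells of a type and less RNA per cell cannot be told apart. Non-neuronal markers (19 genes of astrocytes, oligodendrocytes and their precursors, microglia and endothelium) also differed between these populations: their summed level was 156 to 246 CPM in CamK WT, 375 to 813 CPM in SST WT and 751 to 1004 CPM in Grik WT, with none of the 19 at 0 in any library. Their part in the differences below was not tested.

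**Figure D2:**
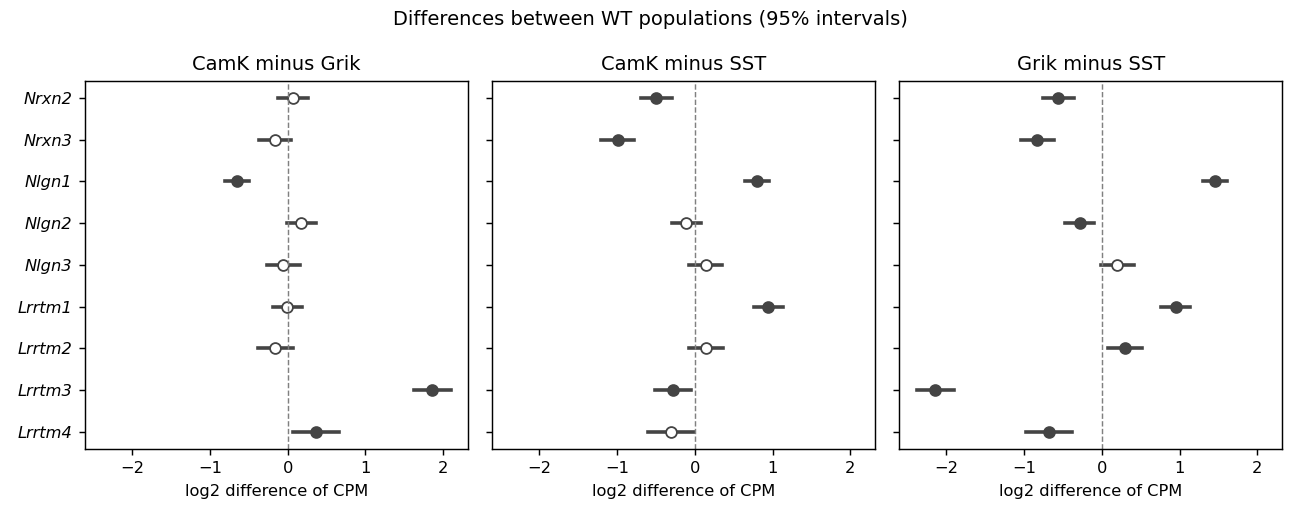
Log2 difference of CPM between WT populations for each gene (points) with its 95% interval (lines). Filled points passed the edgeR adjusted p of 0.05. Lrrtm3 and Nlgn1 lie farthest from 0 in the comparisons with Grik, and Nrxn3 and Lrrtm1 are about equally far from 0, on opposite sides, between CamK and SST.

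Both neurexins were higher in the interneurons than in either pyramidal population. Nrxn3 was at 282, 373, 350 and 351 CPM in SST WT replicates 1, 2, 3 and 5. It was at 158, 152, 196 and 178 CPM in CamK WT replicates 2 to 5, and at 196, 188, 201 and 178 CPM in Grik WT replicates 3 to 6. Every SST library was above every pyramidal library. The fitted log2 difference was -0.99 (SE 0.10, edgeR adjusted p = 8.47e-09) for CamK against SST and -0.83 (SE 0.10, adjusted p = 1.59e-07) for Grik against SST. Nrxn2 was at 287, 295, 243 and 240 CPM in the same SST WT libraries. CamK WT libraries ranged from 167 to 203 CPM and Grik WT libraries from 150 to 215 CPM, again without overlap with SST. In log2, the difference was -0.49 (SE 0.10, edgeR adjusted p = 9.02e-05) for CamK against SST and -0.56 (SE 0.10, adjusted p = 1.94e-05) for Grik against SST. Between CamK and Grik neither neurexin passed the threshold, with a log2 difference of 0.07 (95% interval -0.13 to 0.26) for Nrxn2 and -0.16 (-0.37 to 0.05) for Nrxn3. Limma-voom with sample weights gave Nrxn3 an adjusted p of 0.0491 in that comparison, on the other side of the threshold.

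The make-up of the pair was compared as well. Nrxn2 held 50.3 ± 2.51% of the summed CPM per kb of Nrxn2 and Nrxn3 in CamK, 46.2 ± 3.61% in Grik and 41.9 ± 4.50% in SST wild types (SD, n = 4 each), and Nrxn3 the rest. With the longest annotated transcript as length, Nrxn2 held 56.9%, 52.8% and 48.3%, so that the larger part in Grik was then that of Nrxn2. None of these 3 differences passed an adjusted p of 0.05 in the exact permutation test described with the other shares. The CamK and SST libraries overlapped, with an adjusted p of 0.0807. Without SST WT replicate 1 that difference passed, at 0.0490.

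Nlgn1, a neuroligin of excitatory synapses, was highest in Grik, intermediate in CamK and lowest in SST. Grik WT replicates 3 to 6 were at 104, 93.1, 102 and 97.7 CPM. CamK WT replicates 2 to 5 were at 65.6, 65.8, 58.3 and 62.1 CPM, and SST WT replicates 1, 2, 3 and 5 at 31.3, 43.2, 34.2 and 35.8 CPM. The 3 groups did not overlap. The log2 difference was -0.66 (SE 0.07, edgeR adjusted p = 1.08e-07) for CamK against Grik, 0.80 (SE 0.07, adjusted p = 1.21e-09) for CamK against SST and 1.46 (SE 0.08, adjusted p = 1.68e-14) for Grik against SST. The last of these was 2.75-fold.

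Nlgn2, which acts at inhibitory synapses, varied less. Grik WT libraries were at 174, 186, 230 and 214 CPM, CamK WT libraries at 201, 218, 250 and 241 CPM, and SST WT libraries at 251, 282, 218 and 229 CPM. All 3 groups overlapped. Nlgn2 was lower in Grik than in SST by a log2 difference of -0.28 (SE 0.09, edgeR adjusted p = 0.00936). That call was lost without Grik WT replicate 3 (adjusted p = 0.0601) and without SST WT replicate 2 (0.0610), the library with little Sst. Between CamK and Grik the difference of 0.18 did not pass, at an edgeR adjusted p of 0.120, and passed without Grik WT replicate 5 (0.0359). Nlgn3 was at 34.8 ± 6.14 to 40.0 ± 2.12 CPM (SD, n = 4) in the 3 WT groups and passed in no comparison. Its largest difference was 0.20 (95% interval -0.01 to 0.41) between Grik and SST. Without SST WT replicate 2 it was 0.30, with an edgeR adjusted p of 0.0171. Over all fits without 1 library it ran from 0.10 to 0.30, with an edgeR adjusted p of up to 0.394.

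Lrrtm3 had the widest range of the 9 genes. Grik WT replicates 3 to 6 were at 5.38, 6.77, 6.40 and 7.17 CPM. CamK WT replicates 2 to 5 were at 23.8, 26.2, 19.4 and 23.9 CPM, and SST WT replicates 1, 2, 3 and 5 at 24.2, 28.9, 26.5 and 33.8 CPM. Every Grik library was below every CamK and SST library. The fitted log2 difference was 1.86 (SE 0.12, edgeR adjusted p = 3.52e-12) for CamK against Grik, which is 3.63-fold, and -2.14 (SE 0.12, adjusted p = 3.95e-14) for Grik against SST, which is 4.41-fold. CamK was also below SST, by a log2 difference of -0.28 (SE 0.11, edgeR adjusted p = 0.0314) with overlapping groups. This small difference did not pass with limma-voom (adjusted p = 0.0616), nor without CamK WT replicate 4 (0.139), SST WT replicate 2 (0.0588) or SST WT replicate 5 (0.160).

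Lrrtm1, which binds neurexins at excitatory synapses, was higher in both CamK and Grik than in SST. CamK WT libraries were at 107, 126, 138 and 125 CPM and Grik WT libraries at 107, 116, 141 and 134 CPM, with a log2 difference of -0.0040 between them (95% interval -0.19 to 0.18). SST WT libraries were at 65.2, 69.7, 57.2 and 65.6 CPM, below all of these. In log2, the difference was 0.95 (SE 0.09) for each pyramidal population against SST, with edgeR adjusted p-values of 1.90e-09 and 1.71e-09. SST libraries held excitatory markers at 717 to 1017 CPM, and what these contribute to Lrrtm1 and Nlgn1 in SST was not tested. Dentate granule cell markers were at 67.1 to 204 CPM in CamK WT, 109 to 120 in Grik WT and 23.7 to 35.0 in SST WT, and their part in these differences was not tested.

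Lrrtm2 and Lrrtm4 differed less. Lrrtm2 was at 56.2, 48.3, 47.6 and 48.6 CPM in Grik WT, against 33.8, 41.2, 36.4 and 51.6 CPM in SST WT, with 1 SST library inside the Grik range. The log2 difference of 0.30 (SE 0.11, edgeR adjusted p = 0.0197) was not called without Grik WT replicate 3 (adjusted p = 0.0655), SST WT replicate 1 (0.0924) or SST WT replicate 3 (0.0724), nor with replicate number as a block (0.0566). CamK WT libraries lay between 43.9 and 46.8 CPM and passed against neither population, except against SST without SST WT replicate 5 (0.0182). Lrrtm4 was at 17.7, 16.0, 19.3 and 17.4 CPM in Grik WT and at 23.4, 32.2, 27.0 and 29.6 CPM in SST WT, with no overlap. Its log2 difference was -0.67 (SE 0.14, edgeR adjusted p = 0.000269). CamK WT libraries were at 24.5, 26.1, 16.9 and 23.2 CPM, which overlapped both. The call of CamK above Grik (log2 difference 0.37, SE 0.14, edgeR adjusted p = 0.0416) was lost in 6 of 8 fits that left out 1 library. It was lost without CamK WT replicate 2, 3 or 5 (adjusted p = 0.0971, 0.131 and 0.0792) and without Grik WT replicate 3, 4 or 6 (0.0635, 0.100 and 0.0734). It was also lost without the filter on low counts (0.0563), in a fit of these populations alone (0.0586) and with a sex-gene covariate (0.0504). CamK against SST had a log2 difference of -0.31 (edgeR adjusted p = 0.0648). This difference passed without CamK WT replicate 3 (0.0371) or SST WT replicate 1 (0.0292), with a CPM filter (0.0484) and with the block (0.0439). Over all fits without 1 library it ran from -0.39 to -0.18, with an edgeR adjusted p of up to 0.263.

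Counts of members whose groups did not overlap were 3 of 9 for CamK against Grik (Nlgn1, Lrrtm2 and Lrrtm3), beside 38.3% of all genes. They were 4 of 9 for CamK against SST, beside 53.9%, and 6 of 9 for Grik against SST, beside 52.3%. The span of the WT group means of log2 CPM puts the genes on 1 scale. It was 2.13 (log2) for Lrrtm3, larger than in 83.6% of the 18823 genes, and 1.47 for Nlgn1, larger than in 72.5%. For Nlgn3 it was 0.22, larger than in 10.3%, and for Nlgn2 0.29, larger than in 16.3%. The median span of all genes was 0.76.

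**Figure D3:**
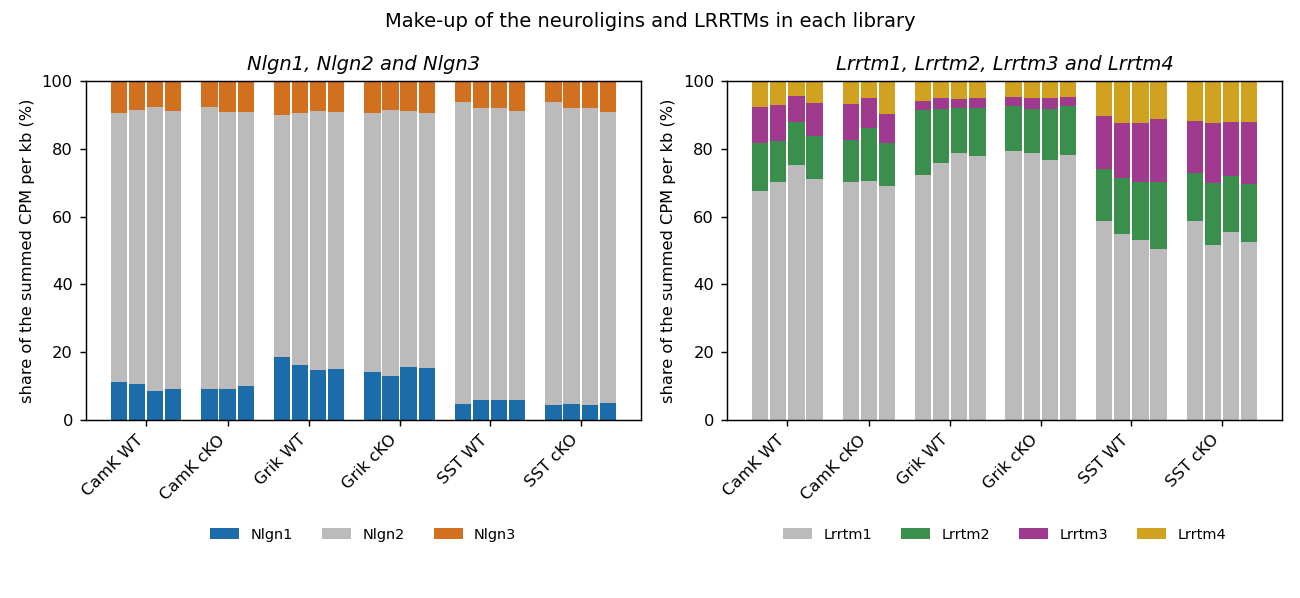
Share of each gene (%) in the summed CPM per kb of the 3 neuroligins (left) and the 4 LRRTMs (right), 1 bar per library in order of replicate number within each group. Nlgn2 takes the largest share of the first sum in every library, and the Lrrtm3 share is smallest in Grik.

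Shares within a family do not depend on the scaling of a library. Among the 3 neuroligins, Nlgn2 held 81.6 ± 1.90% of the summed CPM per kb in CamK, 74.7 ± 2.25% in Grik and 86.8 ± 1.64% in SST wild types (SD, n = 4 each). Nlgn1 held 9.81 ± 1.26%, 16.0 ± 1.71% and 5.52 ± 0.488%. Nlgn3 stayed between 7.70 ± 1.18% and 9.31 ± 0.547%, or 12.4 to 14.7% when exon bases shared with any other gene were left out of the length of every member. Without division by length, Nlgn1 held 19.2%, 29.3% and 11.4% in CamK, Grik and SST WT. Among the LRRTMs, Lrrtm1 held 71.0 ± 3.18%, 76.2 ± 2.83% and 54.3 ± 3.52% in CamK, Grik and SST WT. Lrrtm3 held 9.59 ± 1.42%, 2.82 ± 0.289% and 17.0 ± 1.33%. Lrrtm4 held 6.45 ± 1.35%, 5.34 ± 0.414% and 11.6 ± 0.998%, and Lrrtm2 13.0 ± 0.881%, 15.7 ± 2.54% and 17.2 ± 1.98%. Without division by length, Lrrtm2 held 20.9% in CamK and 25.4% in Grik WT, and Lrrtm4 10.6% and 8.87%.

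Of 24 tests of a share between WT populations, 14 had groups that did not overlap and an adjusted p of 0.0490 (exact two-sided permutation test, Benjamini-Hochberg over the 24). Each of the 14 had the smallest p that 4 against 4 libraries allow, 0.0286. They were Nlgn1, Nlgn2 and Lrrtm3 in all 3 comparisons, Lrrtm1 and Lrrtm4 in both comparisons with SST, and Lrrtm2 for CamK against SST. The adjusted value passes only because so many tests reach that floor. These tests are tied: when a share rises, the others of its family together must fall. Among the called shares, the level was not called for Nlgn2 between CamK and Grik (edgeR adjusted p = 0.120). Between CamK and SST it was not called for Nlgn2 (0.319), Lrrtm2 (0.263) and Lrrtm4 (0.0648). For the other called shares the level was called too. The Lrrtm2 share was lower in CamK than in SST, while its level was higher by 0.14 (log2). Without CamK WT replicate 3, CamK WT replicate 5, SST WT replicate 2 or SST WT replicate 3 no share difference passed. Single calls were lost for Lrrtm2 (CamK against SST) without CamK WT replicate 4 (adjusted p = 0.0762, exact permutation test) and for Nlgn2 (CamK against SST) without SST WT replicate 1 (0.0857). Single calls were gained for Lrrtm4 (CamK against Grik) without CamK WT replicate 4 (0.0490) and for Nlgn3 (Grik against SST) without SST WT replicate 5 (0.0457). The 3 neuroligins summed to 48.2 ± 3.63, 46.5 ± 4.62 and 48.8 ± 5.46 CPM per kb in CamK, Grik and SST WT (SD, n = 4), and the LRRTMs to 57.6 ± 3.62, 53.7 ± 4.87 and 39.2 ± 3.72. Nrxn2 and Nrxn3 summed to 27.3 ± 2.39, 28.3 ± 2.28 and 46.2 ± 3.35.

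The second question was whether the genes differed between libraries labelled cKO and WT. None of the 9 passed in any population, where 0.0106% of all genes (2 of 18823) did in each. With edgeR, 0 of 9 also had an unadjusted p under 0.05 in each population, beside 7.05%, 4.88% and 5.85% of all genes in CamK, Grik and SST, and DESeq2 and limma-voom called 0 of 9. Over the 27 tests the 95% intervals reached at most 0.52 upward and -0.44 downward on the log2 scale, both for Lrrtm4.

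**Figure D4:**
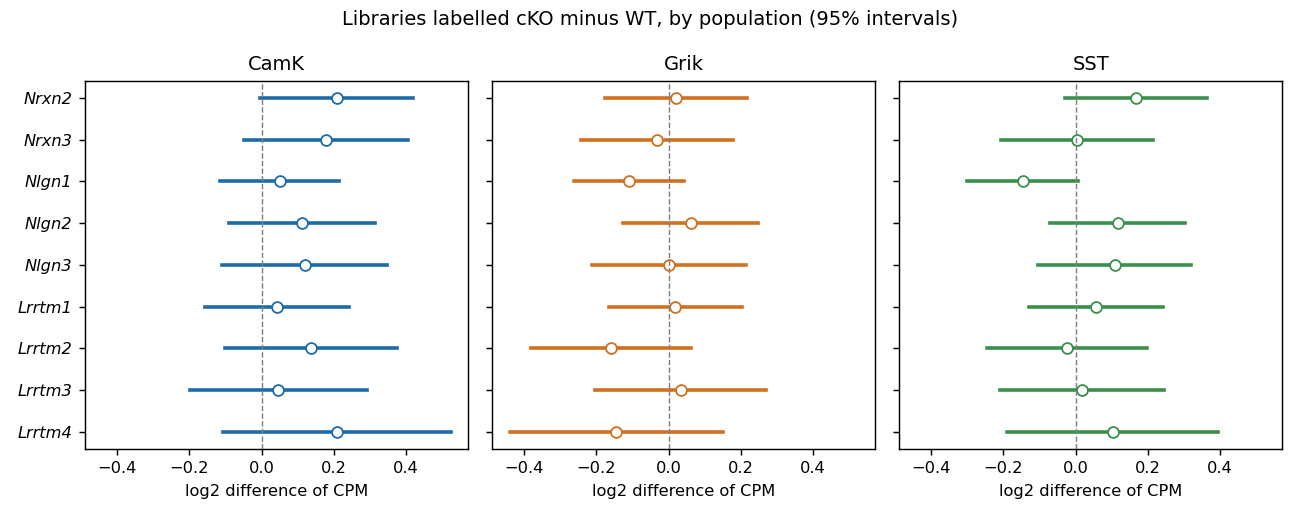
Log2 difference of CPM between libraries labelled cKO and WT for each gene in each population (points) with its 95% interval (lines). All points are open because no gene passed the edgeR adjusted p of 0.05, and every interval includes 0.

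Of the neurexins, Nrxn2 in CamK came closest to the threshold. Libraries labelled cKO were at 211, 227 and 218 CPM, all above the highest WT library, at 203 CPM. On the log2 scale they differed by 0.21 (95% interval -0.0040 to 0.42, edgeR adjusted p = 0.715). Groups without overlap were seen for 6.75% of all genes in CamK. In SST, Nrxn2 libraries labelled cKO were at 348, 286, 298 and 263 CPM, inside and above the WT range of 240 to 295 CPM, with a log2 difference of 0.17 (-0.03 to 0.36). In Grik it was 0.02 (-0.18 to 0.22). Without 1 library, the Nrxn2 value in SST ran from 0.083 to 0.222. Nrxn3 differed by 0.18 (-0.05 to 0.40) in CamK, where the 3 libraries labelled cKO ranged from 162 to 236 CPM. It differed by -0.03 (-0.24 to 0.18) in Grik and by 0.00 (-0.21 to 0.21) in SST. Fits that left out 1 library gave 0.012 to 0.291 for Nrxn3 in CamK.

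For the neuroligins, Nlgn1 was at 32.6, 33.3, 32.2 and 32.4 CPM in SST libraries labelled cKO, within the WT range of 31.3 to 43.2 CPM. They differed by -0.15 (log2, 95% interval -0.30 to 0.01, edgeR adjusted p = 0.833). It was -0.11 (-0.26 to 0.04) in Grik and 0.05 (-0.11 to 0.22) in CamK. Without 1 library, Nlgn1 ran from -0.210 to -0.068 in SST and from 0.023 to 0.083 in CamK. Nlgn2 differed by 0.11 (-0.09 to 0.31), 0.06 (-0.13 to 0.25) and 0.12 (-0.07 to 0.30) in CamK, Grik and SST. Nlgn3 differed by 0.12 (-0.11 to 0.35), 0.00 (-0.21 to 0.21) and 0.11 (-0.10 to 0.32). Without 1 library, Nlgn3 ran from 0.051 to 0.212 in CamK and from 0.009 to 0.181 in SST. Nlgn2 then ran from 0.069 to 0.167 in CamK and from 0.065 to 0.171 in SST.

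Among the LRRTMs, only Lrrtm2 in Grik had groups that did not overlap, as 4.59% of all genes did there. Libraries labelled cKO were at 43.3, 42.0, 47.0 and 47.2 CPM, below the lowest WT library at 47.6 CPM. This log2 difference was -0.16 (95% interval -0.38 to 0.06, edgeR adjusted p = 0.992). Lrrtm4 varied most among CamK libraries labelled cKO, at 24.8, 18.7 and 35.1 CPM, with a log2 difference of 0.21 (-0.11 to 0.52). Lrrtm1 differed by 0.02 to 0.06 and Lrrtm3 by 0.02 to 0.05 in the 3 populations. In SST 0 of 9 members had groups without overlap, beside 2.7% of all genes.

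All 9 differences in CamK were above 0, with a median of 0.12 where the median of all genes was 0.00 and 49.5% of all genes were above 0. Leaving out single libraries turned Lrrtm1, Lrrtm2, Lrrtm3 or Lrrtm4 below 0. Of the non-neuronal markers, 18 of 19 also had a log2 difference above 0 in CamK, with a median of 0.59, and they summed to 245 to 321 CPM against 156 to 246 in WT. In Grik 5 of 9 member differences were above 0 (median 0.00, all genes 50.8% above 0), beside 17 of 19 non-neuronal markers (median 0.20), which summed to 838 to 1161 CPM against 751 to 1004 in WT. In SST 7 of 9 members were above 0 (median 0.06), where all genes had a median of 0.02 and 56.0% were above 0, beside 16 of 19 markers (median 0.30), which summed to 314 to 1218 CPM against 375 to 813. None of the 19 passed the test in any population, and their part in the members' values was not tested.

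The difference of these differences between populations was tested as well. It passed for 0 of 9 members in each pair of populations, where 0.00531%, 0% and 0.0106% of all genes passed for CamK minus Grik, CamK minus SST and Grik minus SST. Khdrbs3 was the 1 gene called for CamK minus Grik and 1 of the 2 for Grik minus SST. The lowest p-values were for Lrrtm2 in CamK minus Grik (log2 0.30, 95% interval -0.03 to 0.62, edgeR adjusted p = 0.793), Nlgn1 in CamK minus SST (0.20, -0.03 to 0.42, adjusted p = 0.667) and Lrrtm4 in Grik minus SST (-0.25, -0.66 to 0.17, adjusted p = 0.9999). Without 1 library, Lrrtm2 ran from 0.15 to 0.37, Nlgn1 from 0.13 to 0.26 and Lrrtm4 from -0.31 to -0.17 in these comparisons. No member had an unadjusted p under 0.05 in these edgeR tests, beside 6.5%, 7.85% and 3.86% of all genes. DESeq2 and limma-voom called none. The 24 share tests between libraries labelled cKO and WT gave no call, with an adjusted p of 0.943 in every exact permutation test. The largest share difference was that of Nrxn2 in SST, at 44.5 ± 3.52% against 41.9 ± 4.50% (SD, n = 4 each).

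A list of 31 partner genes places the members in their pathway: neurexin ligands, their receptors, neuroligin regulators, postsynaptic scaffolds and neurexin cytoplasmic partners. All 31 were tested. Between CamK and Grik WT 20 passed, 16 higher in CamK and 4 lower, with a median log2 difference of 0.33 (all genes 0.01). Between CamK and SST 27 passed, 19 higher and 8 lower (median 0.59, all genes -0.02). Between Grik and SST 27 passed, 17 higher and 10 lower (median 0.36, all genes -0.03). The shares of the list were 64.5%, 87.1% and 87.1%, beside 42%, 60.1% and 57.3% of all genes.

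The largest differences in the list were in secreted neurexin ligands. Cbln4, a cerebellin, was at 133 ± 21.7 CPM in SST WT, 25.6 ± 8.56 in CamK WT and 1.90 ± 1.21 in Grik WT (SD, n = 4 each). Its log2 difference was 3.75 (SE 0.55, edgeR adjusted p = 2.08e-05) for CamK against Grik and -6.13 (SE 0.59, adjusted p = 5.31e-08) for Grik against SST. Cbln1, another cerebellin, ran the other way between CamK and SST, at 18.4 ± 3.66 against 1.24 ± 0.198 CPM, and was at 3.78 ± 0.408 CPM in Grik. Nxph1, a neurexophilin, a secreted protein that binds neurexins, was at 264 ± 26.1 CPM in SST against 2.41 ± 1.69 in CamK and 1.88 ± 0.616 in Grik. Nxph3 was instead highest in CamK, at 21.9 ± 2.54 CPM, against 5.65 ± 1.55 in Grik and 2.39 ± 0.389 in SST. C1ql2 and C1ql3, secreted ligands of the complement C1q family, were at 45.4 ± 10.7 and 74.0 ± 13.9 CPM in CamK, 30.2 ± 3.78 and 47.6 ± 2.997 in Grik, and 3.45 ± 0.668 and 7.67 ± 1.27 in SST. Cbln2 was at 6.40 ± 1.10 CPM in CamK and 2.01 ± 0.206 in Grik. The partner genes named for a comparison by the rule given under processing passed the edgeR test there and kept that call in every alternative run.

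Clstn3, a calsyntenin that binds neurexins, was at 549 ± 81.2 CPM in SST against 247 ± 11.0 in CamK and 285 ± 38.4 in Grik (SD, n = 4 each). Mdga1, which blocks neuroligins from binding neurexins, was at 99.6 ± 9.99 CPM in Grik, 63.6 ± 7.72 in CamK and 15.2 ± 3.32 in SST, the same order as Nlgn1. Gphn (gephyrin), the scaffold of inhibitory synapses, was at 146 ± 11.1 CPM in Grik and 113 ± 3.47 in CamK, a log2 difference of -0.37 (SE 0.06, edgeR adjusted p = 3.88e-05) for CamK against Grik. Apba2, an adaptor of the neurexin tail, was at 571 ± 72.5 in Grik and 403 ± 22.1 CPM in CamK. Between libraries labelled cKO and WT none of the 31 passed in any population with edgeR, DESeq2 or limma-voom. With edgeR, an unadjusted p under 0.05 was reached by 4 of the 31 for CamK, 1 for Grik and 6 for SST, beside 7.05%, 4.88% and 5.85% of all genes. For CamK and SST these were larger shares than over all genes, and for Grik a smaller one. Whether the list as a whole differed was not tested, and it was chosen with earlier results of these data known.

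Genes whose pattern over the 6 group means was most like that of a member were sought among 9006 genes, for members that ranged over at least 1 log2 unit. Nlgn1 ranged over 1.60 and Lrrtm3 over 2.16. Among the closest to Nlgn1 was Csnk1g1, with a root mean square difference of 0.05 (log2, after centring). For Lrrtm3 the closest were Cdh22 with 0.05 and Tunar with 0.07. These genes were picked as the closest of 9006 over only 6 means, so small differences follow from the search. Whether they are smaller than for other genes was not tested.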

How the data were processed

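Titles gave the population and genotype of each sample, and column names were matched to titles. The authors deposited unnormalized read counts per gene, and the submitters' processing notes name Trimmomatic, STAR and GRCm38. Strand setting and annotation release are not given in the sources used here. Summary rows that name no gene (12.4 to 18.4% of reads) were left out. Some genes and a sequence that the rules would choose are not reported here.

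The members and lists were chosen with earlier results of these data known. Genes were kept by filterByExpr (18823), scaled by TMM, and fitted in all 23 libraries and 6 groups with edgeR 4.0.16 (glmQLFit, robust, glmQLFTest; 17 residual degrees of freedom) in R 4.3.3. P-values were adjusted by Benjamini-Hochberg within a comparison, with a threshold of 0.05. CPM uses TMM-scaled totals, and CPM per kb divides by the union of GENCODE M21 exons. Shares were compared with exact permutation tests of library means. Named are all members, Khdrbs3 and, per WT comparison, up to 4 higher and 4 lower called partner genes by log2 difference, with no overlap and a mean CPM of at least 1. Members had at least 470 reads per library. Over all genes, replicates differed beyond sampling noise in all 33 pairs. The edgeR function was tested on simulated data. Alternatives were relative log expression scaling, other filters, DESeq2 1.42.0, limma-voom (limma 3.58.1), the compared populations alone, a replicate block, a sex-gene covariate, other lengths and leaving out each library.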

Additional observations from a re-analysis of the deposited data

Results flagged for a closer look

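In 3 groups of 4 libraries, 1 library lay far from the other 3 relative to the range of the group, beyond the 95% critical value of Dixon's test. Lrrtm1 in Grik cKO replicate 3 was at 120.5 CPM, below 127.8 to 128.1 CPM in the other 3 libraries. Lrrtm2 in Grik WT replicate 3 was at 56.2 CPM, above 47.6 to 48.6 CPM in the others. The Nlgn1 share of the neuroligin sum in SST WT replicate 1 was 4.79%, below 5.71 to 5.81% in the others. With 85 groups examined, chance gives 4.25 such cases. The difference of Khdrbs3 between libraries labelled cKO and WT was not the same in all populations, by an edgeR test of the difference itself: -0.73 (log2) for CamK minus Grik and 0.78 for Grik minus SST.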

How the results depend on the processing

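Counts of members and of partner genes called stayed within 1.5 times their main value in every alternative run, and no member or partner was called between libraries labelled cKO and WT in any. Counts over all genes between these libraries were small and moved. In CamK, 2 calls became 14 with DESeq2, 6 with limma-voom, 1 in a fit of the population alone, 4 with the replicate block, 1 with the sex-gene covariate and 1 to 4 without 1 library. In Grik, 2 became 14 with DESeq2, 37 with limma-voom, 5 alone and 1 to 9 without 1 library. In SST, 2 became 1 without a filter, 11 with DESeq2, 0 with limma-voom, alone or with the sex-gene covariate, and 0 to 2 without 1 library. For differences between populations, CamK minus Grik went from 1 to 2 with DESeq2, 0 with the block or the sex-gene covariate and 0 to 2 without 1 library. CamK minus SST went from 0 to 10 with DESeq2, 1 with limma-voom and 0 to 1 without 1 library, and Grik minus SST from 2 to 4 with DESeq2. The 14 share differences between WT populations ranged from 0 to 15 without 1 library. The cause of these moves was not tested.

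Signs turned only where no member was called. For cKO against WT, Nlgn3 in Grik became -0.0052 with relative log expression scaling, -0.0020 without a filter, -0.0052 with DESeq2 and -0.0042 alone. Nrxn3 in SST became -0.0096 with the CPM filter, -0.010 with limma-voom, -0.013 alone and -0.020 with the sex-gene covariate. Lrrtm1 in CamK became -0.013 with the block, Lrrtm2 in SST 0.027 with limma-voom, and Lrrtm3 in SST -0.000955 alone and -0.020 with the block. Lrrtm1 for CamK WT against Grik WT became 0.0061 with the CPM filter and 0.028 with the block. The Lrrtm2 share difference for Grik WT against SST WT became 0.321 percentage points without division by length. Without 1 library, values ran in CamK from -0.010 to 0.105 for Lrrtm1, -0.011 to 0.210 for Lrrtm2, -0.033 to 0.116 for Lrrtm3 and -0.059 to 0.402 for Lrrtm4. In Grik they ran from -0.061 to 0.110 for Nrxn2, -0.0015 to 0.128 for Nlgn2, -0.031 to 0.031 for Nlgn3, -0.048 to 0.078 for Lrrtm1 and -0.044 to 0.085 for Lrrtm3. In SST they ran from -0.074 to 0.061 for Nrxn3, -0.105 to 0.110 for Lrrtm2 and -0.051 to 0.114 for Lrrtm3. For CamK WT against Grik WT they ran from -0.0093 to 0.160 for Nrxn2 and -0.065 to 0.060 for Lrrtm1. Khdrbs3 ran from -0.0078 to 0.126 for CamK minus SST.

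Correlations of deviations between cKO and WT libraries of the same replicate number had no common sign. They were 0.169 and 0.046 in CamK, -0.089 and -0.335 in Grik and -0.212 and 0.310 in SST. Between cKO and WT libraries of different numbers in a population they ran from -0.447 to 0.483. Whether the numbers mark pairs cannot be told from so few libraries. The replicate block changed 2 member calls, Lrrtm2 for Grik against SST (adjusted p = 0.0566) and Lrrtm4 for CamK against SST (0.0439).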
